A study of Mus musculus with 16 samples.

Results

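The metabotropic glutamate receptors and the Homer scaffolds were followed in the amygdala of young C57BL/6 mice. The genes were chosen by name: the receptors Grm2, Grm3, Grm4, Grm5, Grm7 and Grm8 and the scaffolds Homer1, Homer2 and Homer3, 9 of the 17293 genes in the deposited table, and all 9 were found and passed the filter on low values. Prenatally stressed (PS) offspring, carried by dams under a chronic psychosocial stress paradigm during pregnancy, were compared with offspring of undisturbed control (CTRL) dams at postnatal day 28. PolyA RNA from the dissected amygdala of 4 CTRL males (LM17 to LM20), 4 CTRL females (LM21 to LM24), 4 PS males (LM25 to LM28) and 4 PS females (LM29 to LM32) was sequenced, 16 libraries in all. Offspring of a group came from different litters. No group carried a transgene or a mutation, and no group received a further treatment.

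Metabotropic glutamate receptors are G protein-coupled receptors that adjust excitability and transmitter release on a slower time scale than the glutamate-gated ion channels. Group I receptors (Grm5 here) couple to Gq and phospholipase C and sit mainly around the postsynaptic density. Group II (Grm2, Grm3) and group III (Grm4, Grm7, Grm8) receptors couple to Gi/o, lower cAMP and act largely as presynaptic brakes on release, with Grm3 also found on astrocytes. Homer proteins bind the tails of group I receptors through an EVH1 domain, and their long, coiled-coil forms tie these receptors to Shank and to internal calcium stores. In the amygdala, Grm5 is known for its part in fear learning.

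Promoter sequences were taken from RefSeq (GRCm38.p6). They are printed for Grm2 and Homer3, which are among the genes that the comparisons turn on. Homer1, the scaffold that varied least between libraries, is printed beside them. Windows ran from 250 bases before a RefSeq start to 50 after it. These starts can differ from the gene spans given below, which come from GENCODE, and the first Homer1 window lies inside its span. Of the 9 genes 7 had 1 or more of 12 windows, and Grm4 and Grm5 had none. The Grm2 window lay at chr9:106656060-106656359 on the minus strand, the Homer3 window at chr8:70282749-70283048 on the plus strand and the first Homer1 window at chr13:93303507-93303806 on the plus strand. Capitals mark the GC box GGGCGG on either strand in Grm2 and Homer3, and TGACG, the core of the cAMP response element, in Homer1.
Grm2 promoter: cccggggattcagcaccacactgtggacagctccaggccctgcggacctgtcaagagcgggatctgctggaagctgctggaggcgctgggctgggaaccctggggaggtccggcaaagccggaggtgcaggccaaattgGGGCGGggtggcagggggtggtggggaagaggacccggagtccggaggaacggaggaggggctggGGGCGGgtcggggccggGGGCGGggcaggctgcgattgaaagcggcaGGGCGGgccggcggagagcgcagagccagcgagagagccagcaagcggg
Homer3 promoter: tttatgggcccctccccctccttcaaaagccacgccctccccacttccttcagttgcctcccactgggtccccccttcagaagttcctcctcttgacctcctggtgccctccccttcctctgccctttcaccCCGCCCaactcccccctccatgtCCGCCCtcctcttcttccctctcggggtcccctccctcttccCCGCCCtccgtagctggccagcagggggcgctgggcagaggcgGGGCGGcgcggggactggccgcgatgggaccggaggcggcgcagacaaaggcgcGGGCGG
Homer1 promoter: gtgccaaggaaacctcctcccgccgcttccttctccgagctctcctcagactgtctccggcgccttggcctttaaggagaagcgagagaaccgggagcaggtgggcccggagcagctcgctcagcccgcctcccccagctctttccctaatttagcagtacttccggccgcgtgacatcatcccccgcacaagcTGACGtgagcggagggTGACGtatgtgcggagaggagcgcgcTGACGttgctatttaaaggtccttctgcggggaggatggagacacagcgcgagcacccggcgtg

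The Grm2 and Homer3 windows were alike in base composition, at 72% and 69.7% G or C against a median of 52.7% over 32851 mouse windows, and neither held a TATA box (TATAAA). The first windows of the other members that had one also lay above that median. They held 63% in Homer1, 82.3% in Homer2, 63.7% in Grm3, 61% in Grm7 and 67% in Grm8. Grm2 held 4 GC boxes and Homer3 held 5, in a genome where 35.7% of windows of the same length held at least 1. The Homer1 window held no GC box and 3 copies of TGACG, which was present in 20.8% of all windows. Letters searched on both strands and not present in these 3 windows were the full cAMP response element TGACGTCA (which contains TGACG and occurred in 1.79% of all windows), the EGR1 site GCGTGGGCG (0.612%), one arm of the glucocorticoid response element, AGAACA (19.0%), and TATAAA (13.6%). Among the other members, Homer2 held 8 GC boxes in its first window, some of them overlapping, Grm3 held 2 and each of Grm7 and Grm8 held 1 in its first window. These matches describe letters and not bound sites.

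Levels were read as CPM, the deposited unit, in which the corrected values of a library are scaled to a common sum. To rank genes or give shares, CPM was divided by the length of each gene's merged exons in kb. Merged exons take in all annotated transcripts (3440 bases for Homer3, 11976 for Homer1 and 12621 for Homer2). This length can exceed that of the RNA present, and the order of genes and their shares depend on it. In CTRL males Grm5 led the 9 genes with 77.4 ± 3.39 CPM per kb (SD, n = 4), and its 4 libraries lay above those of every other member. Homer1, whose gene makes both the long scaffold and the short activity-induced form Homer1a, followed with 18.2 ± 0.744 CPM per kb. Grm7 at 13.8, Grm3 at 12.9 and Homer2 at 11.3 CPM per kb came next, and each of these neighbours overlapped the next in its 4 libraries.

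Homer3 followed with 8.71 ± 0.695 CPM per kb and Grm2 with 3.29 ± 0.507 CPM per kb, both without overlap with their neighbours in the order. Grm8 at 0.59 and Grm4 at 0.525 CPM per kb closed the order and overlapped each other. The order was the same in PS females, and in CTRL females Grm3 stood before Grm7, Homer3 before Homer2 and Grm4 before Grm8, each pair overlapping. In PS males Homer3 stood in the third place, against the sixth in CTRL males, with 17.9 ± 6.79 CPM per kb. Its range there overlapped that of Homer1 above it, through LM28 alone, and that of Grm3 below it.

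**Figure D1:**
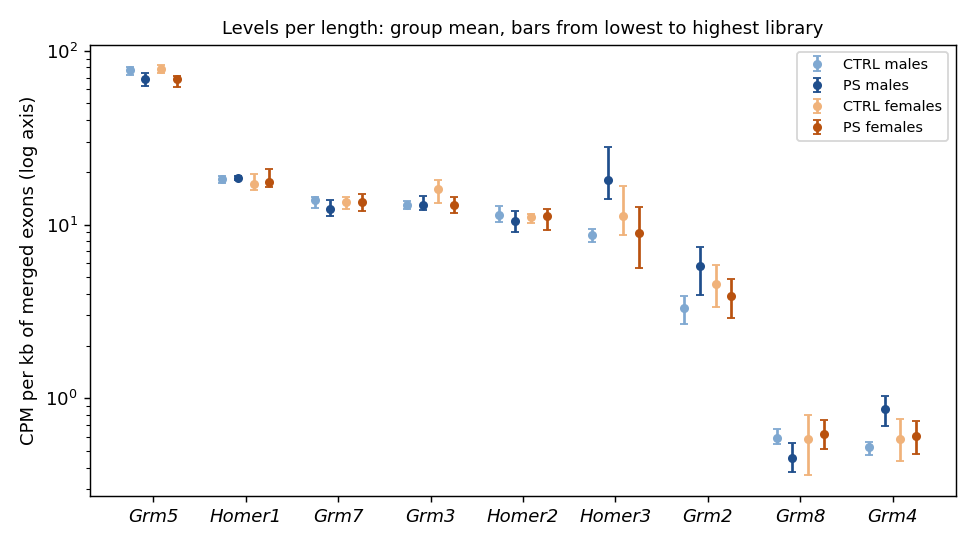
Mean CPM per kb of merged exons (log axis) of the 9 genes in the 4 groups, ordered by the CTRL male level, with bars from the lowest to the highest of 4 libraries. Grm5 stood at 77.4 CPM per kb in CTRL males and Grm4 at 0.525. Homer3 stood in the third place in PS males, where it overlapped Homer1 and Grm3, and in the sixth in CTRL males.

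Within groups, Grm5 and Homer1 varied little between libraries, with a coefficient of variation averaged over the 4 groups of 5.86% and 6.98%. Homer3 (29.1%), Grm2 (21.4%), Grm8 (19.9%) and Grm4 (17.2%) varied most, above 98.8%, 97.2%, 96.5% and 94.8% of the 11023 genes with a mean CPM over 5. Grm4 lay below that minimum and Grm8 close to it, so their place is a comparison with genes of higher level.

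The dissection was checked by marker lists, since the label amygdala covers several nuclei and their neighbours. The 5 excitatory markers of the basolateral amygdala and cortex summed to 1994 to 3752 CPM over the 16 libraries, and the 6 choroid plexus markers to 0.549 to 1.72 CPM. Oligodendrocyte markers (10 genes, Mbp among them) ran from 116 CPM in PS female LM32 to 1047 CPM in PS male LM28, and hippocampal markers (11 genes such as Prox1 and C1ql2) from 326 CPM in LM32 to 2636 CPM in LM28. In bulk tissue, fewer cells of a type and less RNA per cell cannot be told apart. Sums of the corrected values ran from 39989993 to 44275406 per library, they are not read totals, and so the read depth is unknown and no counting interval is given; within-group correlations of the libraries were 0.994 to 0.999, and no 2 of them were identical.

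The first comparison asked whether PS changed these genes in males. No member passed the rule used here for differentially expressed genes (limma, Benjamini-Hochberg FDR under 0.05 and a fold change over 1.5). That rule called 145 of 14309 genes, 1.01%, and 0 genes without LM25 and LM28. At the same thresholds but with edgeR, the authors reported Grm2, Grm4 and Homer3 as higher in PS males. They also reported qPCR in that direction for Grm2 and Homer3. At an unadjusted p under 0.05 there were 5 of 9 members, Grm2, Grm4, Grm5, Grm7 and Homer3, beside 25.7% of all genes. Libraries of PS and CTRL males did not overlap in deposited CPM for 3 of 9, Grm2, Grm4 and Homer3, beside 23.9% of all genes. The median log2 fold change of the 9 members was -0.05 and that of all genes 0.0073, with 3 members above 0 and 6 below.

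**Figure D2:**
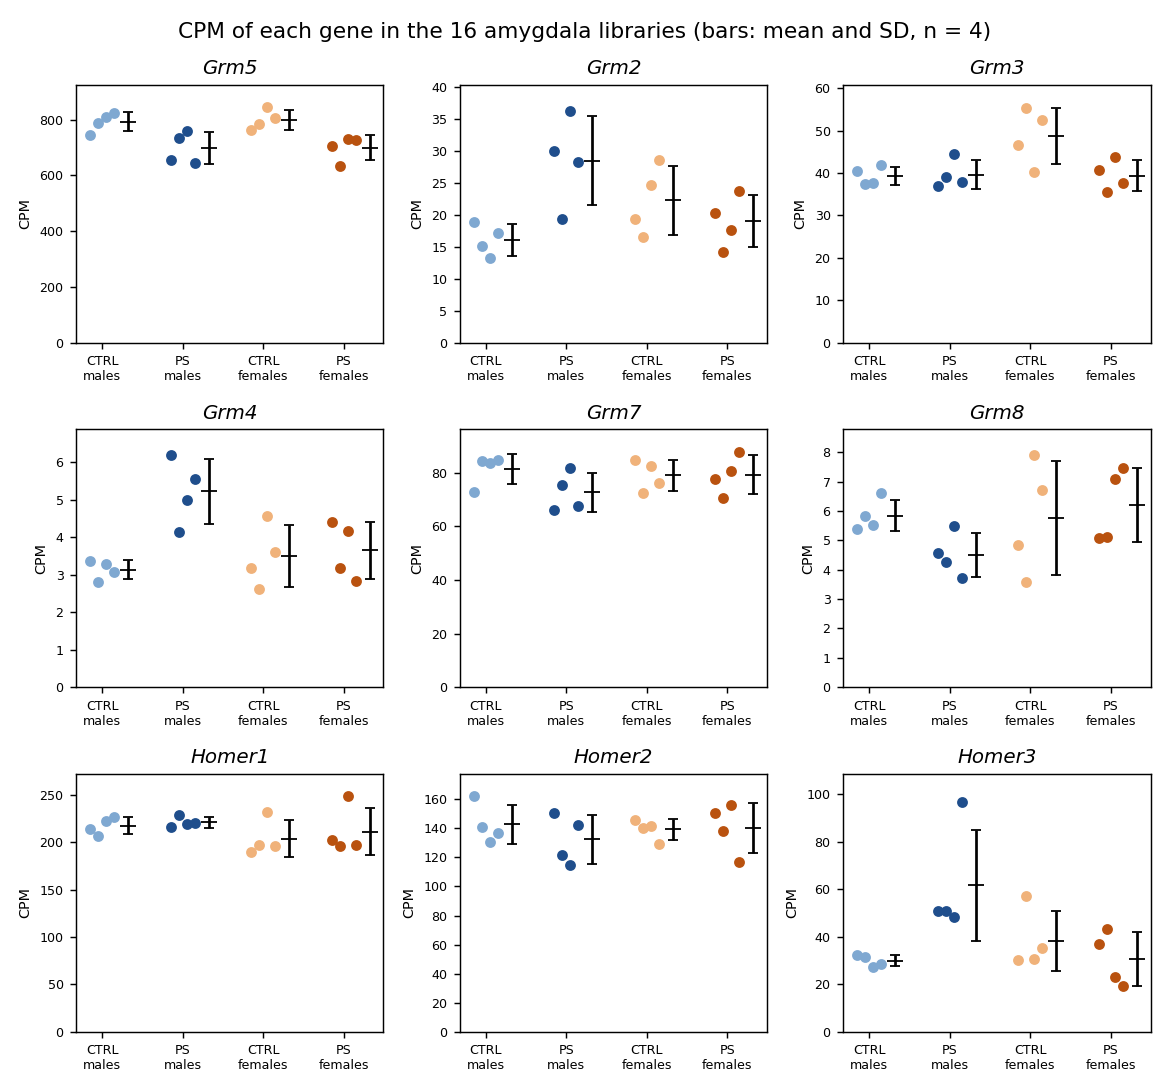
CPM of each of the 9 genes in the 16 libraries by group, 1 point per library, with the mean and SD beside the points (n = 4). In males Grm2, Grm4 and Homer3 had all 4 PS points above all 4 CTRL points, from 19.3, 4.16 and 48.5 CPM upwards.

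Homer3, the scaffold paralog best known from cerebellar Purkinje cells, was measured at 32.3, 31.6, 27.2 and 28.7 CPM in CTRL males and at 50.8, 50.8, 48.5 and 96.7 CPM in PS males. All PS males stood above all CTRL males, and LM28 stood apart from the other PS males. The log2 fold change was 0.91 (SE 0.28, 95% interval 0.31 to 1.51), with a limma adjusted p of 0.0761. Without LM28 it was 0.66 with an adjusted p of 0.118. Levels of Homer3 in females were 30.0, 57.1, 30.6 and 35.4 CPM in CTRL and 37.1, 43.5, 23.0 and 19.3 CPM in PS, and these overlapped, with a log2 fold change of -0.32 (SE 0.28, adjusted p 0.663).

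Homer3 lies at chr8:70282827-70294361 on the plus strand (mm10), and 874 of the 3440 bases of its merged exons are shared with Ddx49, an RNA helicase gene on the opposite strand. The library kit was directional, but the strand setting of the counting is not given in the sources used here. Ddx49 was measured at means of 17.5 CPM in CTRL males and 18.5 CPM in PS males, and it stood at 0.022 on the log2 scale (SE 0.063, limma adjusted p 0.851).

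Grm2, the group II receptor that restrains glutamate release from axon terminals, was measured at 18.9, 15.1, 13.2 and 17.2 CPM in CTRL males and at 30.0, 19.3, 36.2 and 28.3 CPM in PS males. The groups were separated by the small step from CTRL male LM17 to PS male LM26, which did not survive TMM scaling, the scaling used for the test: there LM17 stood at 19.1 CPM and LM26 at 18.6 CPM. The log2 fold change was 0.72 (SE 0.21, 95% interval 0.26 to 1.18), with a limma adjusted p of 0.0709. In females Grm2 was at 19.4, 16.5, 24.7 and 28.5 CPM in CTRL and 20.3, 14.2, 17.7 and 23.7 CPM in PS, overlapping, with a log2 fold change of -0.20 (SE 0.21, adjusted p 0.727). The highest CTRL female stood above 2 of the PS males. Grm2 lies at chr9:106643095-106656082 on the minus strand, and 470 of its exonic bases are shared with the antisense gene model Gm28111.

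Grm4, a group III receptor found on presynaptic terminals, was measured at 3.37, 2.81, 3.29 and 3.07 CPM in CTRL males and 6.19, 4.16, 5.0 and 5.55 CPM in PS males, a low level in both. All PS males stood above all CTRL males on either scale. The log2 fold change was 0.59 (SE 0.17, 95% interval 0.23 to 0.95), with a limma adjusted p of 0.0656. In females the CTRL libraries ran from 2.62 to 4.58 CPM and the PS libraries from 2.85 to 4.42 CPM, 0.078 on the log2 scale (SE 0.17, adjusted p 0.878). The Grm4 gene spans chr17:27422387-27521403 on the minus strand.

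Grm5, at chr7:87584168-88134907 on the plus strand, was lower in PS libraries of both sexes by a small margin that did not pass the test. CTRL males had 746, 789, 811 and 825 CPM and PS males 656, 735, 761 and 645 CPM, where LM27 at 761 overlapped LM17 at 746. After TMM scaling the male groups no longer overlapped, the highest PS male at 727 and the lowest CTRL male at 755 CPM. The log2 fold change was -0.24 (SE 0.077, 95% interval -0.41 to -0.08, adjusted p 0.0810) in males. CTRL females had 762, 785, 846 and 807 CPM and PS females 705, 636, 732 and 726 CPM, without overlap in deposited CPM. After TMM scaling PS female LM31 at 771 CPM overlapped CTRL female LM21 at 765 CPM. There the log2 fold change was -0.17 (SE 0.077, adjusted p 0.381).

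The group III receptors Grm7 and Grm8, like every other member, did not pass the test in males. Grm7, the receptor of the presynaptic active zone, was at 72.9 to 84.8 CPM in CTRL males and 66.1 to 81.7 CPM in PS males, and its change was -0.22 on the log2 scale (SE 0.093, limma adjusted p 0.152). Grm8 was at 5.39 to 6.59 CPM in CTRL males and 3.71 to 5.48 CPM in PS males, -0.40 on the log2 scale (SE 0.21, adjusted p 0.235), and its groups separated only after TMM scaling. Grm7 lies at chr6:110645581-111567230 on the plus strand and Grm8 at chr6:27275119-28135178 on the minus strand, each sharing exonic bases with another gene model (Gm20387, 130 bases, and Mir592, 96 bases). With TMM-scaled CPM, Grm4, Grm5, Grm8 and Homer3, 4 of 9, had no overlap between male groups, beside 22.2% of all genes.

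Estimates for Grm3, Homer1 and Homer2 lay nearest 0 in males. Grm3, the receptor shared by neurons and astrocytes, averaged 39.3 ± 2.13 CPM in CTRL males and 39.6 ± 3.36 CPM in PS males (SD, n = 4), with a log2 fold change of -0.05 and a 95% interval of -0.26 to 0.16 (limma adjusted p 0.779). Homer1 averaged 218 ± 8.92 and 221 ± 5.35 CPM, -0.04 on the log2 scale with an interval of -0.24 to 0.17 (adjusted p 0.833). For both genes the CPM as deposited, without TMM scaling, gave the other sign (0.009 for Grm3 and 0.023 for Homer1). Homer2, another scaffold of group I receptors, averaged 143 ± 13.5 and 132 ± 17 CPM, -0.17 on the log2 scale with an interval of -0.41 to 0.07 (adjusted p 0.350). Homer1 lies at chr13:93299635-93405129 on the plus strand, Homer2 at chr7:81600481-81707527 on the minus strand and Grm3 at chr5:9485541-9725170 on the minus strand. Homer2 shares 525 exonic bases with the antisense gene model Gm44570. The table holds 1 value per gene, so the short and long forms of Homer1, which has 12 annotated transcripts, cannot be told apart.

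In females the same comparison called no gene of 14236, 0%, and none of the 9 members. At an unadjusted p under 0.05 there were 2 of 9, Grm3 and Grm5, beside 12.7% of all genes. In deposited CPM the groups did not overlap for 1 of 9, Grm5, beside 7.45%, and in TMM-scaled CPM for 0 of 9, beside 7.54%. Grm3 had 46.7, 55.3, 40.3 and 52.4 CPM in CTRL females and 40.7, 35.5, 43.7 and 37.6 CPM in PS females, with LM29 and LM31 of the PS group above the lowest CTRL library, LM23. The log2 fold change was -0.27 (SE 0.098, limma adjusted p 0.300). For the other 7 members the adjusted p was 0.663 or more, and the 95% intervals reached from -0.92 for Homer3 to 0.60 for Grm8.

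**Figure D3:**
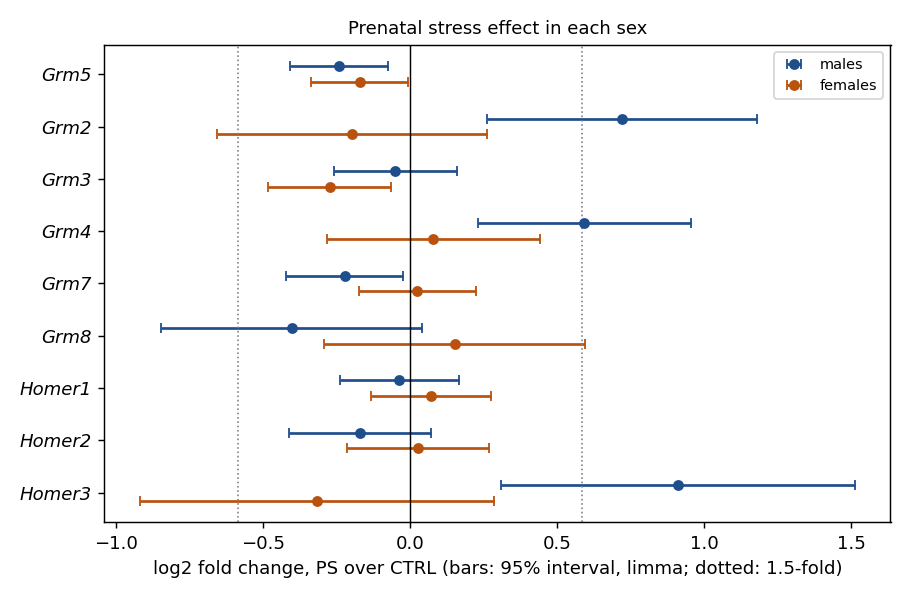
Log2 fold change of PS over CTRL for each gene in males and in females, with 95% intervals from the limma fit; dotted lines mark a 1.5-fold change. Homer3 (0.91 and -0.32) and Grm2 (0.72 and -0.20) had estimates of opposite sign in the 2 sexes, and Grm5 (-0.24 and -0.17) of the same sign.

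Whether the PS effect differed between the sexes was tested directly. The difference passed the rule for 231 of 14392 genes, 1.61%, and for none of the 9 members, of which 3 (Grm2, Grm4 and Homer3) had an unadjusted p under 0.05, beside 24.6% of all genes. The male effect on Homer3 exceeded the female effect by 1.23 on the log2 scale (SE 0.40, limma adjusted p 0.0853). For Grm2 the difference was 0.92 (SE 0.30, adjusted p 0.0884), and for Grm4 0.51 (SE 0.24, adjusted p 0.203). The fits of the PS effects, the sex comparisons and this difference share their libraries and are not separate evidence. In the same difference hippocampal markers were above 0 for 10 of 11 genes (median 1.60, 0 called). Oligodendrocyte markers were above 0 for 10 of 10 (median 0.65, 0 called). The part of these markers in the members' differences was not tested.

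Between the sexes, PS females were set against PS males and CTRL females against CTRL males. Homer3 was lower in PS females than in PS males, at -0.94 on the log2 scale (SE 0.28, 95% interval -1.54 to -0.33, limma adjusted p 0.0436), the one member that passed the rule in any comparison. The highest PS female, LM30 at 43.5 CPM, stood below the lowest PS male, LM27 at 48.5 CPM. The rule called 299 of 14316 genes in this comparison, 2.09%, and 23.7% of all genes had no overlap, as did 1 of the 9 members. In the same comparison oligodendrocyte markers were below 0 for 10 of 10 genes (median -1.10, 1 called lower), with sums of 116 to 632 CPM in PS females and 501 to 1047 CPM in PS males, and hippocampal markers were above 0 for 1 of 11 (median -0.85, 1 called in each direction); their part in the Homer3 difference was not tested. The Homer3 call was lost without LM28 (-0.69, adjusted p 0.0702), without LM31 (-0.84, 0.0808) and without LM32 (-0.75, 0.0994).

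At an unadjusted p under 0.05 there were 4 of 9 members between PS females and PS males, beside 32.3% of all genes. Besides Homer3 these were Grm2 at -0.49 (SE 0.21, limma adjusted p 0.129), Grm4 at -0.40 (SE 0.17, 0.116) and Grm8 at 0.48 (SE 0.21, 0.130). Between CTRL females and CTRL males the rule called 8 of 14244 genes, 0.0562%, and no member. There was no member without overlap, beside 4.23% of all genes, and 1 member, Grm3, had an unadjusted p under 0.05, beside 5.54%. Grm3 was higher in CTRL females by 0.28 on the log2 scale (SE 0.098, adjusted p 0.868), with CTRL female LM23 at 40.3 CPM inside the CTRL male range of 37.5 to 41.8 CPM.

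Ratios within a library need no scaling between libraries, and 2 pairs of paralogs were compared in this way. Grm2 and Homer3 alone already had no overlap between male groups in deposited CPM, as had 23.9% of all genes. Their paralogs Grm3 and Homer1 had male estimates near 0. The male ratios therefore largely restate the differences of Grm2 and Homer3 and are not separate evidence. The ratio of Grm2 to Grm3, the 2 group II receptors, was 0.474, 0.412, 0.359 and 0.418 in CTRL males and 0.814, 0.499, 0.814 and 0.749 in PS males, every PS male above every CTRL male. The log2 ratio was higher by 0.77 (SE 0.19), with a two-sided exact permutation p of 0.0286, the smallest that 4 against 4 libraries allow, and a Benjamini-Hochberg p of 0.0571 over 4 tests. In females the difference was 0.076 (SE 0.27, exact permutation p 0.8286).

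The ratio of Homer3 to Homer1 was 0.153, 0.155, 0.124 and 0.128 in CTRL males and 0.237, 0.224, 0.223 and 0.440 in PS males. Again no PS male overlapped a CTRL male, and the log2 ratio was higher by 0.95 (SE 0.25, two-sided exact permutation p 0.0286, 0.0571 after adjustment). In females the difference was -0.39 (SE 0.39, exact permutation p 0.371). Per kb, Homer3 made up 22.8 ± 1.36% of the summed Homer level in CTRL males and 37.4 ± 7.51% in PS males, and 28.0 ± 6.75% and 23.4 ± 7.19% in CTRL and PS females (SD, n = 4). Grm5 made up 71.3 ± 0.804% of the summed level of the 6 receptors in CTRL males and 67.7 ± 1.56% in PS males, and 69.0 ± 1.35% and 68.5 ± 0.536% in CTRL and PS females. The shares rest on the merged exon lengths. Both ratios were chosen with earlier results of these libraries known.

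Marker lists of other cells and regions had high or low values in PS males, and these are given beside the genes above. Oligodendrocyte markers had positive log2 fold changes for 10 of 10 genes (median 0.76, 0 called) and summed to 266 to 529 CPM in CTRL males and 501 to 1047 CPM in PS males. Hippocampal markers were positive for 10 of 11 genes (median 0.77, 0 called), at 623 to 1114 CPM in CTRL males and 876 to 2636 CPM in PS males. In females the hippocampal list had 1 of 11 positive (median -0.77), with 1156 to 1707 CPM in CTRL and 326 to 1430 CPM in PS.

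Homer3 was highest in LM28 (96.7 CPM), the library with the highest sum of either list, and lowest in LM32 (19.3 CPM), the library with the lowest. PS males LM26 and LM27, with hippocampal sums of 929 and 876 CPM inside the CTRL male range, had 50.8 and 48.5 CPM of Homer3, 4.16 and 5.0 CPM of Grm4 and 19.3 and 36.2 CPM of Grm2, above all CTRL males for each in deposited CPM. CTRL male LM18 had 31.6 CPM of Homer3 with an oligodendrocyte sum of 529 CPM, and PS male LM25 had 50.8 CPM with 501 CPM, while the oligodendrocyte sums of LM26 (569 CPM), LM27 (534 CPM) and LM28 (1047 CPM) lay above those of all CTRL males. Without LM25 and LM28, the 2 PS males with the highest hippocampal sums, the male log2 fold change was 0.66 for Homer3 (limma adjusted p 0.233), 0.64 for Grm2 (0.205), 0.42 for Grm4 (0.246) and -0.15 for Grm5 (0.329). The part of oligodendrocyte or hippocampal content in these differences was not tested.

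**Figure D4:**
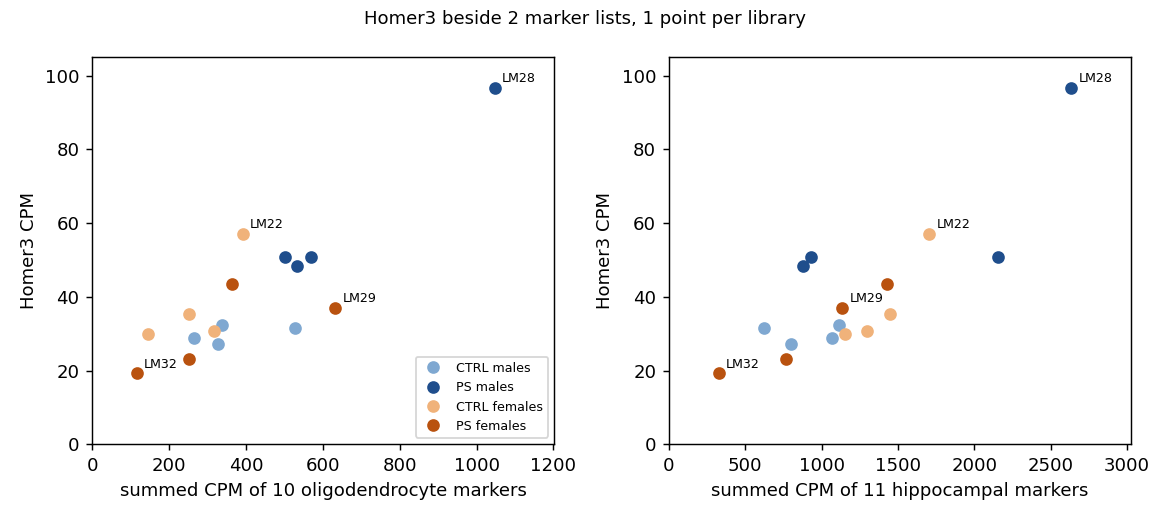
Homer3 CPM against the summed CPM of 10 oligodendrocyte markers and of 11 hippocampal markers, 1 point per library, colored by group. LM28 (96.7 CPM of Homer3) and LM32 (19.3 CPM) lie at the 2 ends of both panels, and the other PS males at 48.5 to 50.8 CPM lie above all 4 CTRL males.

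Further lists leaned one way in males. Markers of the central amygdala and intercalated cells were at a median of -0.57 (1 of 6 tested positive, 1 called lower), with sums of 81.8 to 180 CPM in CTRL males and 50.1 to 104 CPM in PS males. Thalamic and habenular markers were positive for 7 of 8 tested genes (median 0.60, 1 called), and microglial markers for 0 of 8 (median -0.26, 0 called, 2 under the FDR alone). Striatal markers were at a median of -0.45 (0 of 4 tested positive, 0 called), astrocyte markers at 0.11 (5 of 8) and endothelial markers at 0.11 (5 of 6), with none called. The part of these shifts in the members' differences was not tested.

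The partners of the receptors and scaffolds were described from lists of 79 genes, of which 75 were tested, chosen for their place in the pathway. In PS males the rule called 0 higher and 1 lower of the 75, beside 1.01% of all genes in either direction. The FDR alone was passed by 1 higher and 5 lower genes of the 75, beside 3.44% of all genes in either direction. The called gene was Rgs14, a regulator of Gi/o signalling that speeds up GTP hydrolysis. It had 63.8, 65.2, 65.8 and 73.8 CPM in CTRL males and 33.2, 41.6, 50.7 and 50.4 CPM in PS males, without overlap. The log2 fold change was -0.68 (SE 0.14, limma adjusted p 0.0366). In females it had 56.4 to 62.1 CPM in CTRL and 62.0 to 86.4 CPM in PS, and the PS effect differed between the sexes by -0.99 (SE 0.20, adjusted p 0.0376).

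On the Gq side, which carries the signal of Grm5, Plcb4, a phospholipase C downstream of Gq, had 4.64, 4.21, 4.38 and 4.33 CPM in CTRL males and 6.41, 6.60, 6.53 and 6.22 CPM in PS males. It was higher by 0.45 (SE 0.071, limma adjusted p 0.0226), under the 1.5-fold threshold, and its effect differed between the sexes by 0.50 (SE 0.10, adjusted p 0.0376). It was the one gene of 12 in the Gq list that passed the FDR in males. Trpc5, a cation channel opened downstream of Gq, was at -0.38 (SE 0.13, adjusted p 0.109).

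On the Gi/o side, 1 of 14 genes passed the FDR in males. Adcy3, an adenylyl cyclase, was at -0.23 (SE 0.058, limma adjusted p 0.0478), from a mean of 88.7 CPM in CTRL males to 78.8 CPM in PS males. Gnaz, a Gi-family alpha subunit, was at -0.25 (SE 0.080, adjusted p 0.0789) in males, and its PS effect differed between the sexes by -0.45 (SE 0.11, adjusted p 0.0471), under the 1.5-fold threshold. Of the 10 tested desensitisation genes, Grk5, a receptor kinase, passed the FDR beside Rgs14, at -0.37 (SE 0.086, adjusted p 0.0437).

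Among 9 tested adaptors that bind the receptors, 2 passed the FDR in males and neither the fold threshold. Elfn1, a synaptic adhesion protein that recruits presynaptic Grm7, had 27, 28.0, 35.1 and 24.7 CPM in CTRL males and 19.5, 23.0, 19.6 and 17.5 CPM in PS males, without overlap. Its log2 fold change was -0.57 (SE 0.14, limma adjusted p 0.0478). Grip1, a PDZ scaffold, was at -0.26 (SE 0.060, adjusted p 0.0437). Grasp, a scaffold that binds group I receptors, had 37.5 to 44.7 CPM in PS males and 53.0 to 76.3 CPM in PS females, with a PS effect that differed between the sexes by -0.76 (SE 0.18, adjusted p 0.0446).

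The 9 postsynaptic density partners of Homer (the Shank and Dlgap scaffolds, Dlg4 and Agap2) were below 0 for 9 of 9 genes in males, with a median log2 fold change of -0.27 beside 0.0073 over all genes, and none passed the FDR. Dlg4, the scaffold PSD-95, had 753, 742, 734 and 747 CPM in CTRL males and 583, 587, 618 and 729 CPM in PS males, or -0.31 on the log2 scale (SE 0.089, limma adjusted p 0.0682). Agap2, which links Homer to PI3 kinase, was at -0.35 (SE 0.11, adjusted p 0.0786). In females 9 of 9 were above 0, with a median of 0.12 and none passing. Between PS females and PS males 7 of the 9 passed the FDR, all higher in females, beside 13.1% of all genes in either direction, and 1 passed the fold threshold as well. This was Dlgap2 at 0.60 (SE 0.13, adjusted p 0.0142), named after its values were seen.

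Over all lists, 4 of 75 genes were called higher in PS females than in PS males (Rgs14, Grasp, Elfn1 and Dlgap2) and 0 lower. This stands beside 2.09% of all genes called in either direction. Between PS and CTRL females none was called in either direction. Genes of glutamate transport and synthesis showed no call in males, with Glul, the glutamine synthetase of astrocytes, at 0.20 (SE 0.10, limma adjusted p 0.218) and Slc1a3, an astrocytic glutamate transporter, at -0.10 (SE 0.070, adjusted p 0.395). Activity-regulated genes likewise showed no call in males, with 7 of 12 above 0 (median 0.056). In PS against CTRL females 10 of 12 were above 0 (median 0.48, 0 called). In CTRL females against CTRL males 2 of 12 were above 0 (median -0.28, 0 called). Arc, an immediate early gene induced by synaptic activity, averaged 19.8 CPM in CTRL males and 29.9 CPM in PS males, 0.58 on the log2 scale (SE 0.38, adjusted p 0.347), and Map1b, a microtubule-binding protein translated after group I activation, was at -0.24 (SE 0.075, adjusted p 0.0813).

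The genes whose levels ran most like each member over the 16 libraries were found by Pearson's r of log2(CPM + 0.5) among 11025 or 11026 genes, as a description over points that share groups, dissection and correction. Homer3 ran with Sept4 (0.97), Icosl (0.97) and Kif1c (0.96). Grm5 ran with Myo9a (0.95), Wnk3 (0.94) and Alg10b (0.94), and Grm7 with Rab36, Vat1l and Ptprr (each 0.93). These were tighter than the likeness of Grm2, with Dnah9 at 0.85, Tom1l1 at 0.80 and Wls at 0.79.

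Grm4 ran with Rgs5 (0.90), Ubtd2 (0.90) and Igsf9b (0.88), Grm8 with Grik3 (0.88), Tbc1d9 (0.85) and Phlpp2 (0.83), and Grm3 with Zbtb38 (0.81), Cdon (0.79) and Ofd1 (0.78). Homer1 ran with Camk4 (0.84), Kif3b (0.78) and Tbc1d24 (0.75), and Homer2 with Lmtk2 (0.89) and Brsk1 (0.85). No member was among the 3 nearest genes of another. Between members, Grm2 and Grm4 had an r of 0.70, Grm5 and Grm7 of 0.68, and Homer3 ran opposite to Grm8 (-0.81) and Grm7 (-0.78).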

How the data were processed

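PolyA RNA was sequenced with a directional kit. The authors counted uniquely aligned reads (STAR, mm10) per gene with featureCounts and used RUVs factors of unwanted variation with edgeR; versions and the strand setting are not given in the sources used here. The authors' whole-number columns, named raw, are a score: deposited values scaled to a like upper quartile and corrected for 2 factors, not reads. The deposited CPM is taken over the sums of these corrected values. A further 12 columns hold the authors' own fold changes and tests and were not used.

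Deposited CPM was scaled with TMM factors, and log2(CPM + 0.5) was fitted with limma 3.58.1 (R 4.3.3, variance trend) with 1 mean per group over the 16 libraries. The 2 removed directions, recovered from the within-group deviations of 11026 genes with a mean CPM over 5 (singular values of 0.191 and 0.0900 beside 6.08 for the next), were kept as covariates, with 10 degrees of freedom remaining for the spread. Genes with a mean CPM over 0.5 in a compared group were tested, and p-values were adjusted over all of them. Fold changes on this scale understate those of low genes. Because the values are corrected, no count model was used.

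The members, lists and ratios were chosen with earlier results of these data known. Named partner genes are those called in PS males or in the difference between the sexes, plus the 2 with the smallest adjusted p of each list in PS males; a few genes that these rules or the likeness would name are not reported here. Gene models came from GENCODE (GRCm38), promoters from RefSeq; Grm6 and 3 further symbols of the lists were not analysed here. Alternatives changed the pseudocount, scaling, filter, variance prior, removed factors, fold threshold and libraries.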

Additional observations from a re-analysis of the deposited data

Results flagged for a closer look

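Of 36 groups of 4 libraries (9 genes in 4 groups), 4 had 1 library set far apart from the other 3, where chance sets apart about 1 in 20, or 1.8. They were Homer3 in PS male LM28 (96.7 CPM, the others at 48.5 to 50.8), Grm7 in CTRL male LM17 (72.9 CPM, the others at 83.5 to 84.8), Homer1 in CTRL female LM23 (233 CPM, the others at 190.0 to 197) and Homer1 in PS female LM31 (249 CPM, the others at 196 to 203). The last 3 belong to differences that passed no test.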

How the results depend on the processing

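The number of members called in PS males was 0 as reported, 1 with CPM as deposited (Grm4, adjusted p 0.0499), and 3 (Grm2, Grm4 and Homer3) with the removed factors not in the model or in a fit on the 8 compared libraries only, which had 12 and 6 residual degrees of freedom in place of 10. Leaving out 1 library gave 0 to 3. Grm2 then passed without CTRL male LM17 (0.0466), PS male LM26 (0.0297), CTRL female LM24 (0.0478), PS female LM30 (0.0407) or LM32 (0.0394). Grm4 passed without PS male LM26 (0.0385), CTRL female LM22 (0.0440), LM23 (0.0337) or LM24 (0.05), or PS female LM29 (0.0472), LM30 (0.0447), LM31 (0.0459) or LM32 (0.0350). Homer3 passed without CTRL female LM22 (0.0490) or PS female LM30 (0.0461) or LM32 (0.0395). Without 1 library the model can keep only 1 of the 2 removed factors. The direction did not change for these 3 genes, with log2 fold changes of 0.61 to 0.90, 0.52 to 0.69 and 0.66 to 1.01 without 1 library.

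The number called between PS females and PS males, 1 as reported, was 0 with no filter on low values (Homer3 adjusted p 0.0553), no mean trend in the variance prior (0.0542), a fit on the 8 compared libraries only (0.0642) or without PS male LM25 and LM28 (0.116), and 0 to 2 without 1 library, with Grm2 added without LM26 (0.0416). The difference between the sexes called 2 members with the removed factors not in the model (Grm2 0.0463, Homer3 0.0445) and 0 to 1 without 1 library (Grm2 without LM26, 0.0379; Homer3 without LM30, 0.0338). Of 1186 alternative log2 fold changes of members 36 had the other sign, none of them called and all from reported values of 0.151 or less in size; 2 of them moved by over 1 SE, and these and the turned ratios follow. Signs turned for Homer1 between PS and CTRL females (-0.026 to 0.149 without 1 library, lowest without LM31), for Grm5 between PS females and PS males without LM25 and LM28 (-0.025), and for the female ratio of Grm2 to Grm3 (-0.118 to 0.221 without 1 library, below 0 without LM22 or LM32). The cause was not tested beyond the degrees of freedom named. With 3 against 4 libraries, the exact permutation p of the male Grm2 to Grm3 ratio was 0.0571 without any 1 CTRL male. Without PS male LM28 it was 0.0286 for either male ratio. No paired analysis was possible because library labels are not shared between groups and do not name litters. Whether a male and a female library came from the same litter is not given in the sources used here. The sex comparisons treat them as independent.

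Counts over all genes depended on single libraries. The 145 genes of PS males were 321 without LM17, 27 without LM18, 37 without LM19, 26 without LM20, 25 without LM25, 263 without LM26, 274 without LM27, 88 without LM28, 232 without LM30 and 275 without LM32, and 55 with no filter, 48 with no mean trend, 301 with the removed factors not in the model and 264 in the fit on 8 libraries. The 299 genes between PS females and PS males were 507 without LM29, 517 without LM30 and 172 without LM32. The 231 genes of the difference between the sexes ran from 60 (without LM24) to 564 (without LM30), with 81 without LM20, 151 without LM25, 85 without LM31, 145 without LM32, 365 without LM17, 456 without LM21, 380 without LM23, 353 without LM26 and 440 without LM29, and were 9 with no mean trend, 80 with no filter and 481 with the removed factors not in the model.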
